A study of Homo sapiens with 6 samples.

Results

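The genes described here encode the enzymes and transporters of central carbon metabolism: glucose and lactate carriers, the enzymes of glycolysis, lactate dehydrogenase, the pyruvate dehydrogenase complex with its kinases, pyruvate carboxylase, the pentose phosphate pathway and the tricarboxylic acid (TCA) cycle. They were chosen by gene name, from a list of 46, and the rule uses no measured value. All 46 were found among the 17222 gene names of the count table, and 44 had enough reads to be tested. RNA-seq had been performed on H226, a human cell line established from a squamous carcinoma of the lung, to learn which genes respond to the long noncoding RNA *SWINGN* (*LINC00565*). Cells were transiently transfected with a control antisense oligonucleotide (ASO_CTRL) or with ASO_LINC#3, which is directed against *SWINGN*, and were collected 48 h later, with 3 libraries per condition. Only 1 oligonucleotide against the transcript was used, so effects of its sequence and effects of the loss of *SWINGN* cannot be told apart, and *SWINGN* itself was not analysed here. Nothing in the labels says whether the libraries of a condition came from separate transfections, so the p-values measure the spread between these libraries only.

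Glycolysis splits glucose into pyruvate in the cytosol and yields ATP without oxygen. Pyruvate is then either reduced to lactate by lactate dehydrogenase, with lactate leaving through monocarboxylate transporters, or taken into mitochondria, where pyruvate dehydrogenase turns it into acetyl-CoA for the TCA cycle. The pentose phosphate pathway branches off near the top of glycolysis and supplies NADPH and ribose. Tumour cells are known for fermenting much of their glucose to lactate even when oxygen is present, and many glycolytic genes are textbook targets of the hypoxia-inducible factors (HIF).

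Reads on genes ranged from 5738340 to 10546786 in the ASO_CTRL libraries and from 3686828 to 6780016 in those of ASO_LINC#3. The smallest library, ASO_LINC#3 replicate 3, stood apart from the other two of its condition: the chi-square per degree of freedom of the read counts was 13.8 and 14.8 against them, and 2.61 between them. Between the ASO_CTRL libraries this value was 13, 9.18 and 7.66, so the controls also differed from each other, and ASO_LINC#3 replicates 1 and 2 were the most alike. Of the 6 markers of simple epithelium or mesothelium, 5 were measured: the keratins *KRT7*, *KRT8*, *KRT18* and *KRT19*, and *MSLN*. Their summed level was high in all 6 libraries. It was 11730 to 12670 CPM, the read count scaled by library size, in ASO_CTRL and 7129 to 12480 CPM in ASO_LINC#3. *EPCAM* was not analysed here. Of the 6 squamous markers, *KRT5* lay at 94.4 to 117 CPM in ASO_CTRL and 62.6 to 77.8 CPM in ASO_LINC#3, without overlap, *KRT6A* at 0 to 0.0954 and 0.856 to 2.06 CPM, and *TP63*, *KRT14*, *DSG3* and *SOX2* were not analysed here. Of the other cell types, 4 of the 8 fibroblast genes listed were measured and summed to 409 to 505 CPM in ASO_CTRL and 227 to 256 CPM in ASO_LINC#3. *COL1A1* made up most of this sum in ASO_CTRL, at 251 to 367 CPM, and lay at 117 to 134.5 CPM in ASO_LINC#3. *COL3A1* and *PDGFRB* were also lower without overlap, whereas *THY1* overlapped, at 108 to 125 and 90.7 to 129 CPM. *COL1A2*, *DCN*, *LUM* and *PDGFRA* were not analysed here. The leukocyte gene *CD68* lay at 1.08 to 1.89 and 2.79 to 6.51 CPM. Reads assigned to no gene made up 24.8% to 26.3% of each library in ASO_CTRL and 27.9% to 28.1% in ASO_LINC#3, also without overlap. The part of these differences in the results was not tested.

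Cells given ASO_LINC#3 had more RNA of 13 genes of glucose uptake, glycolysis and lactate formation, led by the glucose transporter *SLC2A3*, the regulator *PFKFB4* and the hexokinase *HK2*, and less RNA of *LDHB* and of the TCA cycle gene *OGDH*. With edgeR's quasi-likelihood test, a gene was called at a Benjamini-Hochberg adjusted p below 0.01 and a log2 fold change beyond 0.5. By this rule 15 of the 44 genes were called, 13 higher and 2 lower, against 7.54% of the 14660 genes tested (4.91% higher and 2.63% lower). The libraries of the conditions did not overlap for 28 of the 44 genes, compared with 36.1% of all genes. The increases were all found in the 23 genes of transport, glycolysis, its regulators and lactate dehydrogenase, of which 13 were called higher and 1 lower, with a median log2 fold change of 0.77. In the 17 genes tested of pyruvate dehydrogenase and the TCA cycle, 1 was called lower, 0 were called higher, 14 had a negative value and the median was -0.24. The median over all genes tested was -0.0027. Both medians kept their sign in each ASO_LINC#3 library, at 0.70, 0.63 and 0.98 for the former genes and at -0.28, -0.27 and -0.39 for the latter.

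**Figure D1:**
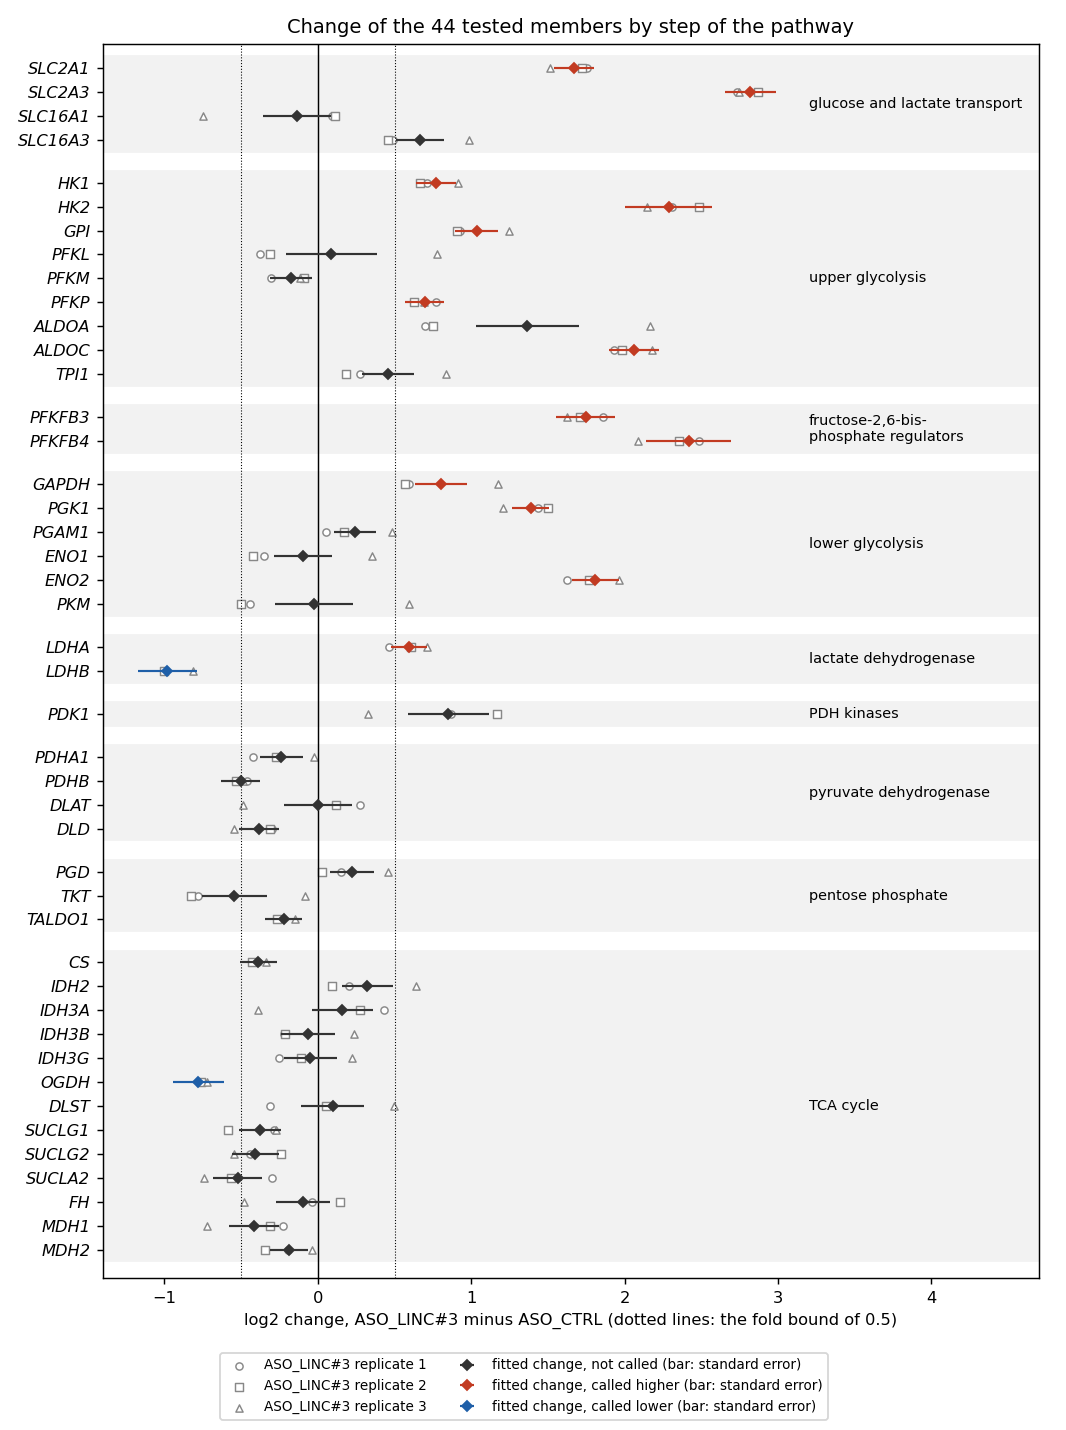
Log2 change of the 44 tested genes, ASO_LINC#3 minus ASO_CTRL, grouped by step of the pathway. Diamonds and bars are the fitted change and its standard error (red, called higher; blue, called lower; black, not called), and open symbols are the 3 ASO_LINC#3 libraries against the ASO_CTRL mean; the 13 red diamonds lie in glycolysis, transport and lactate dehydrogenase, and the triangles of replicate 3 often lie apart.

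As a share of all reads on genes, the transport, glycolysis and lactate dehydrogenase genes took 0.805%, 0.842% and 0.826% in the ASO_CTRL libraries and 1.11%, 1.12% and 1.46% in the ASO_LINC#3 libraries. Those of pyruvate dehydrogenase and the TCA cycle went from 0.171%, 0.164% and 0.173% to 0.142%, 0.136% and 0.134%. The ranges of the conditions did not overlap in either case. Lower glycolysis alone took 0.480% to 0.539% in ASO_CTRL and 0.704% to 0.959% in ASO_LINC#3. Fewer cells expressing a gene and less RNA of it per cell cannot be told apart in bulk RNA.

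Both glucose transporters among the 46 genes were called higher. *SLC2A1* (GLUT1, the widely expressed glucose transporter; chr1:43391024-43424564, minus strand in GRCh37) had 95.6, 83.8 and 82.99 CPM in ASO_CTRL replicates 1 to 3 and 296, 288 and 249.96 CPM in ASO_LINC#3 replicates 1 to 3, a 3.18-fold level (log2 fold change 1.67 ± 0.13 (SE), edgeR adjusted p = 3.19e-05). *SLC2A3* (GLUT3, a transporter with a high affinity for glucose; chr12:8071826-8171603, minus strand) went from 11.6, 11.9 and 8.59 CPM to 72.2, 79.2 and 72.7 CPM, which was 7.06-fold and the strongest increase of the 44 genes (2.82 ± 0.17, edgeR adjusted p = 5.83e-06). For neither gene did any library of one condition come near those of the other. Outside the 46 genes, 2 further glucose transporters had lower values and were not called. *SLC2A6* went from 108, 93.3 and 84.0 CPM to 43.9, 51.2 and 69.9 CPM, without overlap (-0.80 ± 0.18, edgeR adjusted p = 0.0132). *SLC2A8* had values that overlapped (-0.82 ± 0.29, edgeR adjusted p = 0.0761). Of the lactate carriers, *SLC16A3* (MCT4, the main exporter of glycolytic cells) had 172, 183 and 171 CPM in ASO_CTRL and 246, 241 and 347 CPM in ASO_LINC#3, without overlap but outside the threshold (0.66 ± 0.16, edgeR adjusted p = 0.0148). *SLC16A1* (MCT1, which carries lactate in either direction) had 63.4, 89.8 and 82.5 CPM and 82.9, 84.03 and 46.1 CPM, and only replicate 3 lay below the controls (-0.14 ± 0.22, 95% interval -0.63 to 0.35).

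In upper glycolysis, which runs from hexokinase to triose phosphate isomerase, 5 of the 9 genes were called higher and 0 lower. Hexokinase traps glucose in the cell by phosphorylating it. *HK2*, the inducible isoenzyme (chr2:75061254-75120486, plus strand), was measured at 9.83, 4.65 and 4.29 CPM in ASO_CTRL and at 30.1, 34.1 and 26.8 CPM in ASO_LINC#3 (2.29 ± 0.28, edgeR adjusted p = 4.95e-04). *HK1*, the housekeeping isoenzyme, went from 63.3, 67.97 and 61.1 CPM to 105, 102 and 121 CPM (0.77 ± 0.13, edgeR adjusted p = 0.00309). All ASO_LINC#3 libraries lay above all ASO_CTRL libraries for both, and ASO_CTRL replicate 1 had the highest *HK2* level of the controls. *GPI*, the isomerase of the next step, rose 2.05-fold, from 77.98, 90.9 and 84.5 CPM to 160.3, 159 and 201 CPM (1.03 ± 0.14, edgeR adjusted p = 8.35e-04).

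Phosphofructokinase commits sugar to glycolysis, and 1 of its 3 subunit genes was called. *PFKP*, the platelet form, rose from 183, 149 and 161 CPM to 281, 254 and 265 CPM (0.70 ± 0.13, edgeR adjusted p = 0.00440). *PFKM*, the muscle form, had 77.8, 67.97 and 66.8 CPM in ASO_CTRL and 57.02, 66.4 and 65.1 CPM in ASO_LINC#3 and was not called (-0.18 ± 0.13). *PFKL*, the liver form, had 66.1, 96.2 and 57.5 CPM and 55.1, 57.7 and 123 CPM, the highest of all 6 values being in ASO_LINC#3 replicate 3, and its log2 fold change of 0.09 ± 0.30 had a 95% interval from -0.57 to 0.75. The regulators that make and degrade fructose-2,6-bisphosphate, the strongest activator of phosphofructokinase, were both called higher. *PFKFB3*, the form with the greatest kinase activity, had 5.93, 5.33 and 7.63 CPM in ASO_CTRL and 23.4, 21.05 and 19.8 CPM in ASO_LINC#3 (1.75 ± 0.19, edgeR adjusted p = 2.57e-04). *PFKFB4* had 3.10, 1.55 and 1.81 CPM and 12.9, 11.8 and 9.76 CPM (2.42 ± 0.28, edgeR adjusted p = 3.07e-04). Both sets of libraries were well apart.

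The aldolases cleave the phosphorylated sugar, and *ALDOC*, the form best known from brain (chr17:26900133-26903966, minus strand), rose 4.18-fold, from 7.95, 8.78 and 8.78 CPM to 33.2, 34.4 and 39.6 CPM (2.06 ± 0.16, edgeR adjusted p = 3.19e-05). *ALDOA*, the ubiquitous form, had 97.5, 82.3 and 103 CPM in ASO_CTRL and 153, 158 and 423 CPM in ASO_LINC#3. Its libraries did not overlap, with replicate 3 far above the other two, and the gene was not called (1.37 ± 0.34, edgeR adjusted p = 0.0193). Without replicate 3 the log2 fold change was 0.72 and the gene was called, and it was also called without ASO_LINC#3 replicate 2. *TPI1*, which interconverts the products of aldolase, was higher in each ASO_LINC#3 library, at 532, 499 and 787 CPM against 432, 426 and 464 CPM, but did not pass (0.46 ± 0.17, edgeR adjusted p = 0.0845).

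Of the 6 genes of lower glycolysis, from glyceraldehyde phosphate to pyruvate, 3 were called higher and 0 lower. *GAPDH*, often used as a reference gene, had 1844, 2120.2 and 2198 CPM in ASO_CTRL and 3096, 3040.5 and 4616 CPM in ASO_LINC#3 (0.80 ± 0.17, edgeR adjusted p = 0.00868). *PGK1*, the first ATP-yielding enzyme of the pathway (chrX:77166236-77384792, plus strand), rose 2.62-fold, from 688, 665 and 722 CPM to 1873, 1954 and 1599 CPM (1.39 ± 0.12, edgeR adjusted p = 5.99e-05). Of the enolases, *ENO2*, the neuronal form, rose from 12.5, 12.6 and 12.97 CPM to 39.8, 43.98 and 50.4 CPM (1.81 ± 0.15, edgeR adjusted p = 5.37e-05), whereas *ENO1*, the general form, had 1242, 1328 and 1238 CPM in ASO_CTRL and 994, 948 and 1624 CPM in ASO_LINC#3 (-0.10 ± 0.19, 95% interval -0.51 to 0.32). *PKM*, the pyruvate kinase of most tissues, had 674, 674 and 569 CPM and 468, 451 and 964 CPM (-0.03 ± 0.25, 95% interval -0.59 to 0.53). For *ENO1* and *PKM*, replicates 1 and 2 of ASO_LINC#3 lay below every control and replicate 3 above every control. *PGAM1*, the mutase of this stretch, was not called (0.24 ± 0.14). Many of these abundant enzymes have processed pseudogenes, and how reads that match both were counted is not given in the sources used here.

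Lactate dehydrogenase is a tetramer of A and B subunits, of which the A subunit favours the reduction of pyruvate to lactate and the B subunit the reverse. *LDHA* (chr11:18416107-18429972, plus strand) rose from 1192, 1177 and 1054 CPM in ASO_CTRL to 1570.3, 1735 and 1868 CPM in ASO_LINC#3 (0.60 ± 0.12, edgeR adjusted p = 0.00687). *LDHB* (chr12:21788276-21910791, minus strand) was 1.97-fold lower, with 793, 438 and 584 CPM in ASO_CTRL and 293, 293 and 334 CPM in ASO_LINC#3 (-0.98 ± 0.19, edgeR adjusted p = 0.00643). Neither gene overlapped between the conditions, and the control libraries varied more for *LDHB* than those of ASO_LINC#3. Within a library, 1.502, 2.69 and 1.81 reads of *LDHA* were counted per read of *LDHB* in ASO_CTRL replicates 1 to 3, and 5.36, 5.92 and 5.59 in ASO_LINC#3 replicates 1 to 3.

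**Figure D2:**
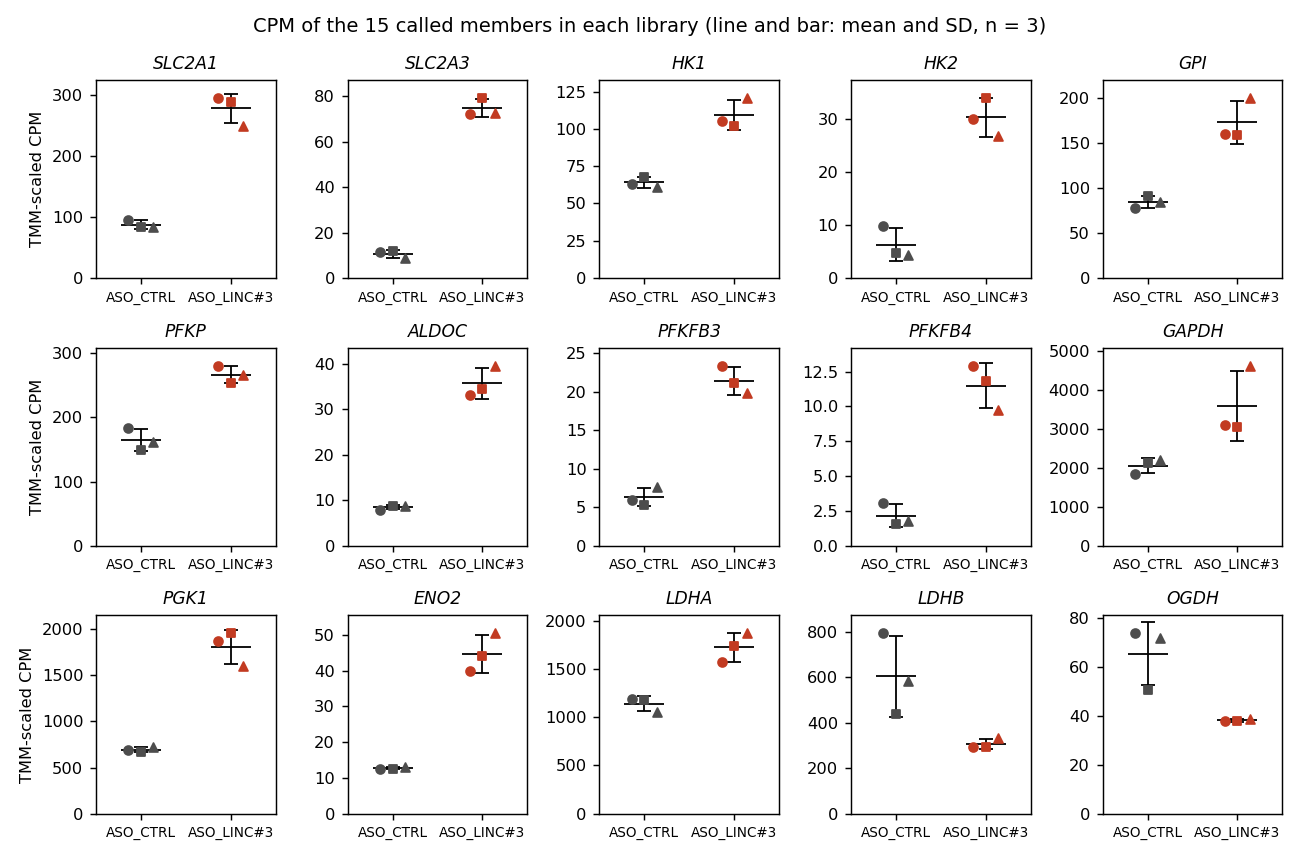
TMM-scaled CPM (linear axes from 0) of the 15 called genes in each library; circles, squares and triangles are replicates 1, 2 and 3, and the line and bar are the mean and SD of 3 libraries. No panel shows overlap between ASO_CTRL (grey) and ASO_LINC#3 (red), and only *LDHB* and *OGDH* are lower in ASO_LINC#3.

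The promoters of these genes were searched for the letters of known binding motifs in the 250 bases before each start site given by RefSeq (GRCh38.p14), and 43 of the 46 genes had 1 or more such windows. The core of the hypoxia response element, ACGTG or GCGTG on either strand, was found in 39 of the 73 windows (53.4%), compared with 43.2% of all 35116 promoter windows. For the ACGTG form alone the shares were 31.5% and 18.5%, and for the E-box CACGTG, which contains it, 9.59% and 6.34%. The antioxidant response core TGACNNNGC (9.59% and 10.9%), the AP-1 motif TGANTCA (5.48% and 6.57%) and the NRF1 motif GCATGCGC (4.11% and 2.63%) were searched in the same way. By gene, 11 of the 12 genes called higher with a window held the hypoxia core, the exception being *SLC2A1*, and so did 18 of the 28 genes not called. By window, the counts were 15 of 24 and 22 of 44. A gene with more start sites has more windows, and a match describes the sequence only.

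The windows of the increased genes *PGK1*, *LDHA*, *ENO2* and *ALDOC* are shown beside those of *LDHB*, which fell, and of *ENO1*, which was not called, so that isoenzyme pairs can be compared. Each is written 5′ to 3′ toward the start site, and capitals mark the core on either strand (CACGT and CACGC are the core read from the other strand). The positions in GRCh38.p14 are chrX:78103998-78104247 on the plus strand for *PGK1*, chr11:18394313-18394562 on the plus strand for the first window of *LDHA*, chr12:21657843-21658092 on the minus strand for *LDHB*, chr12:6914330-6914579 on the plus strand for *ENO2*, chr1:8878687-8878936 on the minus strand for *ENO1* and chr17:28576896-28577145 on the minus strand for *ALDOC*.
PGK1: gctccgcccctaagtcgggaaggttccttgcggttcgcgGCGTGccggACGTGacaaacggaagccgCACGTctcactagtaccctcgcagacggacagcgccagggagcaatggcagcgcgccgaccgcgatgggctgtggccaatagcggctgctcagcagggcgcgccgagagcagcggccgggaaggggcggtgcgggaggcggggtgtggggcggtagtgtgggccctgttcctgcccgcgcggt
LDHA: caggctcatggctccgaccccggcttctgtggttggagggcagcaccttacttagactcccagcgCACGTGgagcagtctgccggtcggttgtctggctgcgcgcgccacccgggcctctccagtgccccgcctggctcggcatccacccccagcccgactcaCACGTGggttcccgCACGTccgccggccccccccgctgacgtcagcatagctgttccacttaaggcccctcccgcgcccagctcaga
LDHB: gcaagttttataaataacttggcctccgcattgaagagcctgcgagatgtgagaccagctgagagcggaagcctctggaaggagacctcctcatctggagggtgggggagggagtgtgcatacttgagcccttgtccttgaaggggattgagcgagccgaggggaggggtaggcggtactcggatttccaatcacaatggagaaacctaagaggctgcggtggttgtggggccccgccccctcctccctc
ENO2: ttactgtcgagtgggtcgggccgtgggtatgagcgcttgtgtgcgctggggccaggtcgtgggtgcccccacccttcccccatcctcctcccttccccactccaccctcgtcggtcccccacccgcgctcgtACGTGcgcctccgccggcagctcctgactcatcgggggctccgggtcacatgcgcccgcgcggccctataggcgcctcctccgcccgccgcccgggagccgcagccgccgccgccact
ENO1: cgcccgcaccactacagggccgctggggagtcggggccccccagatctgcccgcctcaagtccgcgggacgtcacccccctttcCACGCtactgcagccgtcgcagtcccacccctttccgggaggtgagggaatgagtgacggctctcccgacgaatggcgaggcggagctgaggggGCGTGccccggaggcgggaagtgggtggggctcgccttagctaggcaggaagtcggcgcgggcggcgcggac
ALDOC: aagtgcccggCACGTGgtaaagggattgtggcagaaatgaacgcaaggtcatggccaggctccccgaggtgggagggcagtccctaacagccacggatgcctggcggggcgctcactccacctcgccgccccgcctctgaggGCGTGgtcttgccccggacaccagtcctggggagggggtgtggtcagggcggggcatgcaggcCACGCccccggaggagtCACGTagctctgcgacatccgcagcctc
*PGK1* and *LDHA* each held the core at 3 places, *ALDOC* at 4, *ENO1* at 2 and *ENO2* at 1, while *LDHB* held none in this window. *ENO1*, with more matches than *ENO2*, was not called.

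Isoenzymes were compared within each library by the log2 ratio of their reads, which does not depend on scaling but is not a ratio of molecules, since transcript lengths differ. Of 11 pairs, 7 had ratios that did not overlap between the conditions. For single genes that share was 36.1% over all genes tested, and no such share is given here for pairs. Most of the 7 pairs hold a gene called above, so their ratios are not separate from those calls. The ratio differed in favour of *HK2* over *HK1* by 1.59 on the log2 scale (from -3.43 ± 0.66 to -1.85 ± 0.29; SD, n = 3), in favour of *ENO2* over *ENO1* by 1.94 (from -6.63 ± 0.07 to -4.69 ± 0.29), in favour of *LDHA* over *LDHB* by 1.53 (from 0.96 ± 0.43 to 2.49 ± 0.07) and in favour of *PFKP* over *PFKM* by 0.87 (from 1.21 ± 0.07 to 2.08 ± 0.19). *SLC16A3* over *SLC16A1* differed by 0.83 (from 1.17 ± 0.23 to 1.997 ± 0.79) with replicate 3 at 2.90 and the other two at 1.57 and 1.52. The ratio of *SLC2A1* to *SLC2A3* differed by -1.14 (from 3.03 ± 0.23 to 1.89 ± 0.13). The seventh pair, *PDK1* and *PDK3*, rests on 1 to 3 reads of *PDK3* per control library. Each of the 7 differences had an exact two-sided permutation p of 0.1, the smallest that 3 against 3 libraries allow, and 0.157 after adjustment over the 11 pairs, so none could pass. Ratios of *PFKP* to *PFKL*, *PFKFB4* to *PFKFB3*, *ALDOC* to *ALDOA* and *SUCLA2* to *SUCLG2* overlapped between the conditions.

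**Figure D3:**
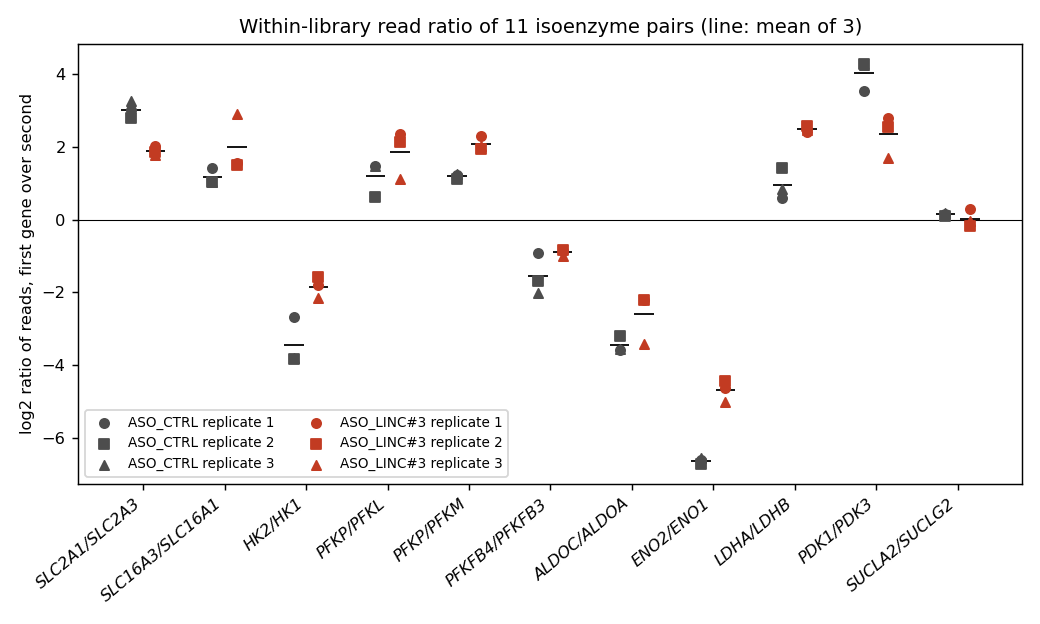
Log2 ratio of the reads of 2 isoenzymes within each library, first gene over second, for 11 pairs; grey symbols are ASO_CTRL, red symbols ASO_LINC#3, and short lines the mean of 3 libraries. The ratios of *ENO2* to *ENO1* and of *LDHA* to *LDHB* lie higher in all 3 ASO_LINC#3 libraries, and that of *SLC2A1* to *SLC2A3* lower.

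Pyruvate dehydrogenase kinases inactivate the pyruvate dehydrogenase complex. *PDK1* had 4.58, 6.54 and 7.15 CPM in ASO_CTRL and 11.2, 13.9 and 7.59 CPM in ASO_LINC#3, without overlap. Its replicate 3 lay close to the controls (0.85 ± 0.26, edgeR adjusted p = 0.0462, not called). *PDK2*, from the further list described below, was lower without overlap (-0.59 ± 0.22, edgeR adjusted p = 0.0884, not called). Its mean was 15.9 CPM in ASO_CTRL and 10.9 CPM in ASO_LINC#3. The phosphatase genes of that list overlapped and were not called: *PDP1* (0.74 ± 0.23, edgeR adjusted p = 0.0525) and *PDP2* (-0.43 ± 0.36). *PDK3* had 2, 1 and 3 reads in the ASO_CTRL libraries and 10, 13 and 8 in those of ASO_LINC#3, too few to be tested. *PC* (pyruvate carboxylase, which feeds pyruvate into the cycle as oxaloacetate) had 13, 5 and 8 reads against 4, 3 and 7 and was not tested either.

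Of the 4 genes of the pyruvate dehydrogenase complex in the main list, 0 were called by edgeR, DESeq2 or limma-voom. Of these, 2 had an unadjusted edgeR p below 0.05 (32.4% of all genes did). All 4 had values below 0, from -0.50 to -0.00019. *PDHB*, the E1 beta subunit, had 145, 167 and 181 CPM in ASO_CTRL and 119, 113 and 116 CPM in ASO_LINC#3, all lower (-0.50 ± 0.13, edgeR adjusted p = 0.0222). *DLD*, the E3 subunit shared with the oxoglutarate dehydrogenase complex, had 89.8, 79.2 and 86.5 CPM and 68.9, 68.5 and 58.02 CPM, also without overlap (-0.38 ± 0.13, edgeR adjusted p = 0.0684). *PDHA1* (-0.24) and *DLAT* (-0.00019, with replicate 3 lower and the others within or above the controls) encode the E1 alpha and E2 subunits. *PDHX*, another subunit of this complex, belongs to the further list described below and went the other way. It had 34.9, 26.8 and 34.1 CPM in ASO_CTRL and 37.5, 37.5 and 37.1 CPM in ASO_LINC#3. These values did not overlap, and the gene was not called (0.22 ± 0.15, edgeR adjusted p = 0.332). When each library's trend with GC content and transcript length was removed, *PDHB* (-0.55, edgeR adjusted p = 0.00818) and *DLD* (-0.52, edgeR adjusted p = 0.00672) passed the rule as lower.

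Among the 13 genes of the TCA cycle, 1 was called lower and 0 higher, a share near the 7.54% called over all genes tested. In this group 10 had negative values and the median was -0.19. The called gene was *OGDH*, the E1 subunit of the oxoglutarate dehydrogenase complex (chr7:44646171-44748665, plus strand), with 73.5, 50.4 and 71.6 CPM in ASO_CTRL and 37.8, 37.8 and 38.8 CPM in ASO_LINC#3, a level 1.72-fold lower (-0.78 ± 0.16, edgeR adjusted p = 0.00918). Its ASO_LINC#3 libraries were nearly equal and all below the controls. *OGDH* was not called by limma-voom or with no filter on low counts. *DLST*, the E2 subunit of the same complex, was not called (0.10 ± 0.21). *CS* (citrate synthase, the entry of the cycle) had 101, 100.2 and 92.2 CPM and 74.7, 72.6 and 77.3 CPM, without overlap (-0.39 ± 0.12, edgeR adjusted p = 0.0502).

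The subunits of succinyl-CoA ligase, which makes a nucleoside triphosphate within the cycle, did not overlap between conditions and were not called: *SUCLA2* had 39.2, 46.8 and 47.03 CPM in ASO_CTRL and 35.9, 29.8 and 26.3 CPM in ASO_LINC#3 (-0.52 ± 0.16, edgeR adjusted p = 0.0442), *SUCLG1* had a log2 fold change of -0.38 ± 0.14 and *SUCLG2* one of -0.41 ± 0.15. After the GC and length correction *SUCLA2* was called lower as well (-0.61, edgeR adjusted p = 0.00687). The malate dehydrogenases *MDH1* (-0.42 ± 0.16) and *MDH2* (-0.19 ± 0.12), fumarase *FH* (-0.09 ± 0.18) and the isocitrate dehydrogenase genes *IDH3A* (0.16 ± 0.20), *IDH3B* (-0.06 ± 0.18), *IDH3G* (-0.05 ± 0.17) and *IDH2* (0.32 ± 0.17) were not called. Of these, only *IDH2* did not overlap, and it was higher, with 31.4, 29.8 and 31.6 CPM in ASO_CTRL and 35.6, 33.0 and 48.3 CPM in ASO_LINC#3. Reads of genes encoded by the mitochondrial genome made up 3.01% to 3.45% of the reads on genes in ASO_CTRL and 1.85% to 2.01% in ASO_LINC#3, which was not tested as a factor.

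Of the 3 pentose phosphate genes, 0 were called by edgeR, DESeq2 or limma-voom, and 1 had an unadjusted edgeR p below 0.05, against 32.4% of all genes. *TKT*, transketolase of the nonoxidative branch, had 184, 195 and 139 CPM in ASO_CTRL and 99.5, 96.2 and 161 CPM in ASO_LINC#3 (-0.54 ± 0.21, edgeR adjusted p = 0.0973), replicates 1 and 2 being below the controls and replicate 3 among them. *TALDO1*, transaldolase of the same branch, had a log2 fold change of -0.22 ± 0.12 without overlap, and *PGD*, which yields NADPH in the oxidative branch, one of 0.22 ± 0.14 with overlap.

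A further list of 60 genes of these pathways was searched for, of which 43 were measured and 42 tested. In it, 4 were called, 3 higher and 1 lower, with a median log2 fold change of -0.03. *ACO1*, the cytosolic aconitase that also acts as an iron regulatory protein, fell from 363, 346 and 356 CPM to 171, 151 and 141 CPM (-1.20 ± 0.12, edgeR adjusted p = 1.68e-04). *TXNIP*, a thioredoxin-binding protein that restrains glucose uptake, rose from 71.7, 69.2 and 68.5 CPM to 163, 192 and 140.4 CPM (1.25 ± 0.14, edgeR adjusted p = 3.12e-04). *PGM2*, a phosphopentomutase, and *HKDC1*, a hexokinase-like gene, were higher by 0.87 ± 0.14 and 0.77 ± 0.15 on the log2 scale (edgeR adjusted p = 0.00214 and 0.00586). All 4 were without overlap between the conditions. The share called in this list, 4 of 42, lay near the 7.54% of all genes.

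Replicate 3 of ASO_LINC#3 departed from the other two in several of these genes. Its change from the control mean had the opposite sign to the mean of replicates 1 and 2 in 10 of the 44 genes, and the median absolute difference was 0.33 on the log2 scale, against 0.36 over all genes tested. The widest gaps were at *ALDOA* (2.17 in replicate 3, 0.73 in the mean of the other two), *PFKL* (0.77 and -0.34), *PKM* (0.60 and -0.47) and *SLC16A1* (-0.75 and 0.10). Several strongly increased genes lay closer: *SLC2A3* was at 2.75 and 2.80, *HK2* at 2.15 and 2.40 and *PGK1* at 1.21 and 1.47. After the GC and length correction the median difference was 0.23 in these genes and 0.28 in all genes.

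**Figure D4:**
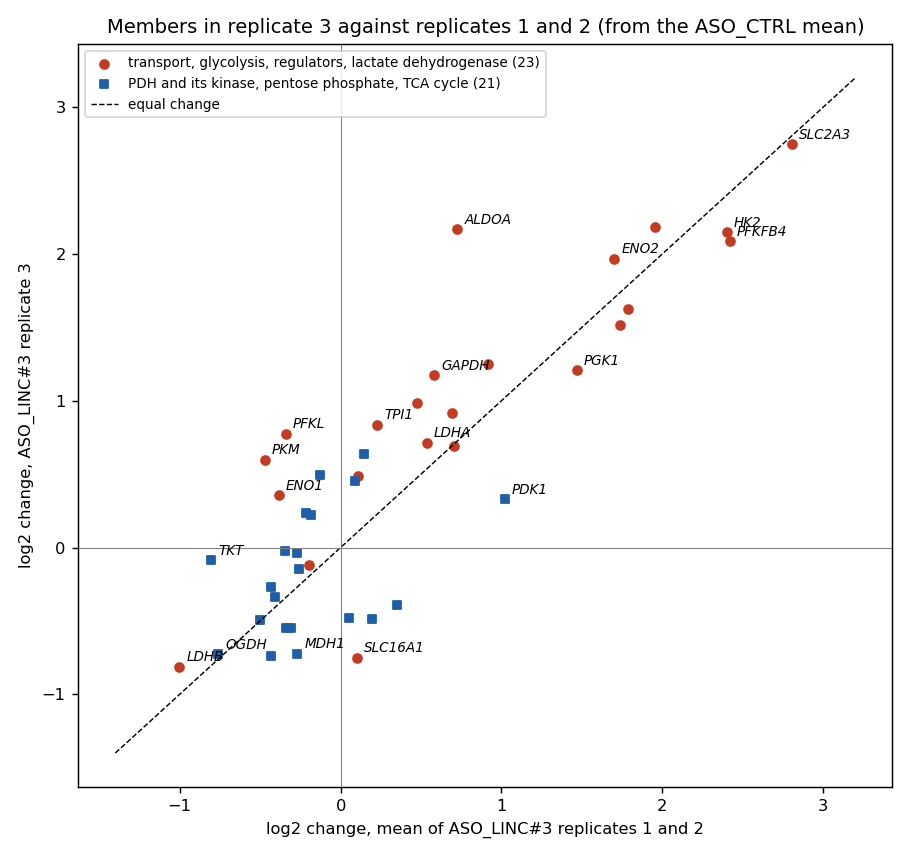
Log2 change from the ASO_CTRL mean in ASO_LINC#3 replicate 3 (vertical) against the mean of replicates 1 and 2 (horizontal) for the 44 tested genes; the dashed line marks equal change, red circles are transport, glycolysis, its regulators and lactate dehydrogenase (23 genes) and blue squares the other 21. *ALDOA*, *PFKL*, *PKM* and *ENO1* lie well above the line, while *SLC2A3*, *HK2* and *LDHB* lie near it.

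Leaving out each library in turn, 9 of the 15 called genes were called every time: *SLC2A1*, *SLC2A3*, *HK2*, *GPI*, *ALDOC*, *PFKFB3*, *PFKFB4*, *PGK1* and *ENO2*. The remaining 6 kept their direction but lost the call in most of the 6 fits: *HK1*, *PFKP*, *GAPDH*, *LDHB* and *OGDH* were called in 2 and *LDHA* in 1, with edgeR adjusted p ranging from 5.69e-04 to 0.0281 for *HK1*, 9.67e-04 to 0.0340 for *PFKP*, 0.00143 to 0.0400 for *GAPDH*, 0.00227 to 0.0497 for *LDHA*, 0.00213 to 0.0359 for *LDHB* and 0.00338 to 0.0534 for *OGDH*. The number called was 10, 11 and 9 without ASO_CTRL replicates 1, 2 and 3, and 9, 12 and 19 without ASO_LINC#3 replicates 1, 2 and 3. In 4 of these 6 fits, 0 genes were called lower, the exceptions being those without ASO_CTRL replicate 2 and without ASO_LINC#3 replicate 3. Without ASO_LINC#3 replicate 3, all 15 were called and *ALDOA*, *PDK1*, *PDHB* and *TKT* joined them, the first pair as higher and the others as lower, while *PKM*, *ENO1* and *PFKL* lay at -0.48, -0.39 and -0.37 on the log2 scale and remained outside the rule.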

How the data were processed

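RNA-seq of H226 cells (3 ASO_CTRL and 3 ASO_LINC#3 libraries, grouped by their labels) was analysed. STAR was used by the authors to align single reads to hg19, and the deposited values are raw counts of reads per gene, neither pooled nor normalized. The counting tool, annotation and strand setting are not given in the sources used here. Reads assigned to no gene were left out. Per the labels, first strand cDNA was primed with oligo(dT). Although the labels name H226, the RNA-seq methods of the study speak of another cell type, and the labels were followed.

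Counts were tested in R 4.3.3 with edgeR 4.0.16 (filterByExpr, TMM scaling, quasi-likelihood F-test over 14660 genes, Benjamini-Hochberg adjustment), with the thresholds stated by the study. The standard error is the absolute log2 fold change divided by the square root of F. CPM are TMM-scaled, and changes of single libraries are log2 CPM (prior count 2) minus the control mean. Isoenzyme ratios were log2 of reads plus 1 and were compared by exact permutation. Gene positions, GC content and length came from GENCODE lifted to GRCh37 (87.2% of tested genes, all 44 of the tested genes described), and the correction used splines of 5 degrees of freedom as offsets. The test was tried on simulated data. Alternatives were DESeq2 1.42.0, limma-voom (limma 3.58.1), other scalings, filters and thresholds, robust dispersion, glmTreat, a replicate block, the correction, and each library left out.

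All 46 genes were accounted for by step, with values per library for called genes and their isoenzyme partners. The genes, lists and tests were chosen with earlier results of these data known. *SWINGN* and 3 neighbouring genes are not reported here.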

Additional observations from a re-analysis of the deposited data

How the results depend on the processing

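The number of genes called (15 of 44) was 13 to 16 under DESeq2, limma-voom, other scalings, other filters and robust dispersion, 20 at an adjusted p of 0.05 and 19 with the GC content and length correction, which added *ALDOA*, *SLC16A3*, *DLD*, *PDHB* and *SUCLA2* and dropped *LDHA*. It was 8 with edgeR's glmTreat, which tests against the fold bound itself and dropped *GAPDH*, *GPI*, *HK1*, *LDHA*, *LDHB*, *OGDH* and *PFKP*, and 9 to 19 when 1 library was left out. Under limma-voom and with no filter on low counts *OGDH* was not called, and with at least 10 counts in every library *GAPDH* was not. Over all genes, 1106 were called, against 384 with glmTreat, 359 to 2616 with 1 library left out, 2465 at an adjusted p of 0.05 and 1715 with the correction. Whether the replicate numbers pair the libraries is not known. Deviations of same-numbered libraries correlated at 0.059, -0.149 and -0.18, but with 3 libraries per condition such values cannot exclude a pairing. With the number as a block 12 genes were called (*HK1*, *LDHA*, *OGDH* and *PFKP* dropped and *ALDOA* added) and 656 over all genes, or 16 and 1181 with the correction as well.

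Of 879 log2 fold changes recomputed, 25 changed sign, in 10 genes of which 0 were called. *DLAT* was at 0.0015 with RLE scaling, 0.019 with library size only and 0.0082 with no filter, and *IDH3G* at 0.013 with the correction and 0.014 with the block as well. With each library left out in turn, the values spanned 0 in these 10 genes: -0.16 to 0.17 for *DLAT*, -0.19 to 0.090 for *IDH3G*, -0.48 to 0.16 for *PKM*, -0.37 to 0.34 for *PFKL*, -0.12 to 0.28 for *DLST*, -0.39 to 0.045 for *ENO1*, -0.22 to 0.017 for *IDH3B*, -0.0084 to 0.35 for *IDH3A*, -0.27 to 0.088 for *SLC16A1* and -0.23 to 0.049 for *FH*. The cause was not tested. All 88 isoenzyme ratios recomputed kept their direction. With 3 libraries per condition, intervals cover these libraries only. In a given fit, a TCA cycle gene with an estimate within 0.5 of 0 on the log2 scale could not be called by the rule. Such estimates moved between fits: with each library left out in turn, *MDH1* ranged from -0.52 to -0.28.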
